A study of Mus musculus with 6 samples.

Results

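The genes described here are the numbered Gpr genes, named Gpr followed by digits only, which were chosen by symbol from the deposited count table of mouse microglia. The rule found 70 of the 24411 genes in the table, and 28 of these passed the filter on low counts, against 13403 genes in all. RNA was sequenced from microglia of the brains of C57BL/6J mice aged 8 weeks. The samples were 3 libraries from Mir137 knockout mice (gKO) and 3 libraries from wild-type mice of the same strain (gWT). The comparison asks what the loss of the microRNA miR-137 does to the microglial transcriptome. The study text speaks of 4 adult mice without tying them to libraries. The labels name no driver line, no sex and no animal for any library, so p-values here reflect variation among the 6 libraries alone, and that variation may be technical.

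G protein-coupled receptors span the membrane with 7 helices and pass signals from small ligands to heterotrimeric G proteins, which set the levels of cyclic AMP, calcium and other messengers. The numbered Gpr symbols were given to receptors found by sequence before a ligand was known. Many of them have since been paired with ligands such as protons, fatty acids, lysophospholipids or oxysterols, and a few encode proteins of the Golgi or lysosome rather than classical surface receptors. In microglia, the resident macrophages of the brain, Gpr34 belongs to the genes that mark the resting state, and Gpr84 is known as a gene of activated cells. The label orphan therefore fits only some of the members.

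The mature miR-137 sequence is shown because its loss is the variable of the study, and the capitals mark the seed, bases 2 to 8, by which a microRNA pairs with its targets. A 3′ UTR that carries the complement of the seed, AGCAATA, could pair with it. The sites of 2 members follow the microRNA, with the site in capitals.
mmu-miR-137-3p: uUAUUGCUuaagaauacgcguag
Gpr176: caaaatgctaaAGCAATAcccaccctgat
Gpr26: atagtatcttcAGCAATAggctcatctca
The microRNA sequence is from RefSeq (GRCm38.p6, chr3:118433901-118433923, plus strand), and the sites are from the GENCODE M21 transcript with the longest 3′ UTR of each gene (GRCm38). The Gpr176 site lies at chr2:118277981-118277987 on the minus strand, at base 1242 of a 2119-base 3′ UTR. The Gpr26 site lies at chr7:131991982-131991988 on the plus strand, at base 7666 of a 10089-base 3′ UTR. Neither of these sites is followed by an A, the base that lengthens a seed match.

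Few members held a seed match, and counts this small do not set them apart from other genes. Of the 67 members with an annotated 3′ UTR, 5 (7.46%) held AGCAATA on the sense strand, among them Gpr17, Gpr26, Gpr151 and Gpr176. Among the 28 members with enough counts to be tested, the match was present in 1 (3.57%), Gpr17, against 10.4% of the 12969 tested genes with a 3′ UTR. The median 3′ UTR was 1240 bases long in the tested members and 1210 bases in all tested genes. No share over all genes, tested or not, was taken to set beside the 5 of 67. The absence of these 7 letters says nothing about other ways of pairing.

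Most members have their coding sequence in a single exon. The longest coding sequence lay in 1 exon in 42 of the 69 members with an annotated coding sequence (60.9%), against 15% of 20528 genes of the table. The other 27 members had a median of 4 coding exons, and among them were Gpr107 with 18, Gpr108 with 17, Gpr155 with 15 and Gpr89 with 14. Some members lie side by side on GRCm38: Gpr18 and Gpr183 are 36.8 kb apart on chromosome 14, both within the span of Ubac2 on the other strand. Gpr34 and Gpr82 are 20.5 kb apart on the X chromosome within the span of Cask, which is also on the other strand. No exon of Gpr18, Gpr183, Gpr34 or Gpr82 overlaps an exon of Ubac2 or Cask.

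The libraries held 14603884 to 17652976 counts in gKO and 16328561 to 17306422 counts in gWT. A count above 0 was found for 13832 to 14090 genes in gKO and for 15012 to 15277 genes in gWT. The deposited table lists Mir137 itself at 0 in all 6 libraries, so the targeted gene gives no check of the labels. All 10 microglial markers were present, with a summed level of 39688 to 42100 CPM (counts scaled to library size) in gKO and 38952 to 41792 CPM in gWT. On the first principal component gKO replicate 3 was alone at 91.5, while the remaining 5 libraries lay between -37.7 and -3.45. Xist, the RNA of the silenced X chromosome, had counts of 0, 0 and 8 in gKO and of 2519, 2000 and 1830 in gWT. Whatever goes with that difference, sex included, cannot be told apart from genotype in Gpr65 or in any other value compared here. Levels are CPM scaled by the TMM method.

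Gpr34 dominated the family in every library. This receptor for lysophosphatidylserine took 39.1% to 58.2% of the summed CPM of the 70 members in gKO and 40.8% to 45.1% in gWT. The summed CPM of all 70 members was 2193, 2053 and 2619 in gKO replicates 1, 2 and 3, against 2144, 2268 and 2296 in the gWT replicates. Without Gpr34 the sums were 1258, 1250 and 1094 CPM in gKO and 1269, 1245 and 1263 CPM in gWT. The highest sum with Gpr34 and the lowest sum without it were both in gKO replicate 3, and the groups overlapped in both sums. In bulk RNA, fewer cells of a type and less RNA per cell cannot be told apart.

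**Figure D1:**
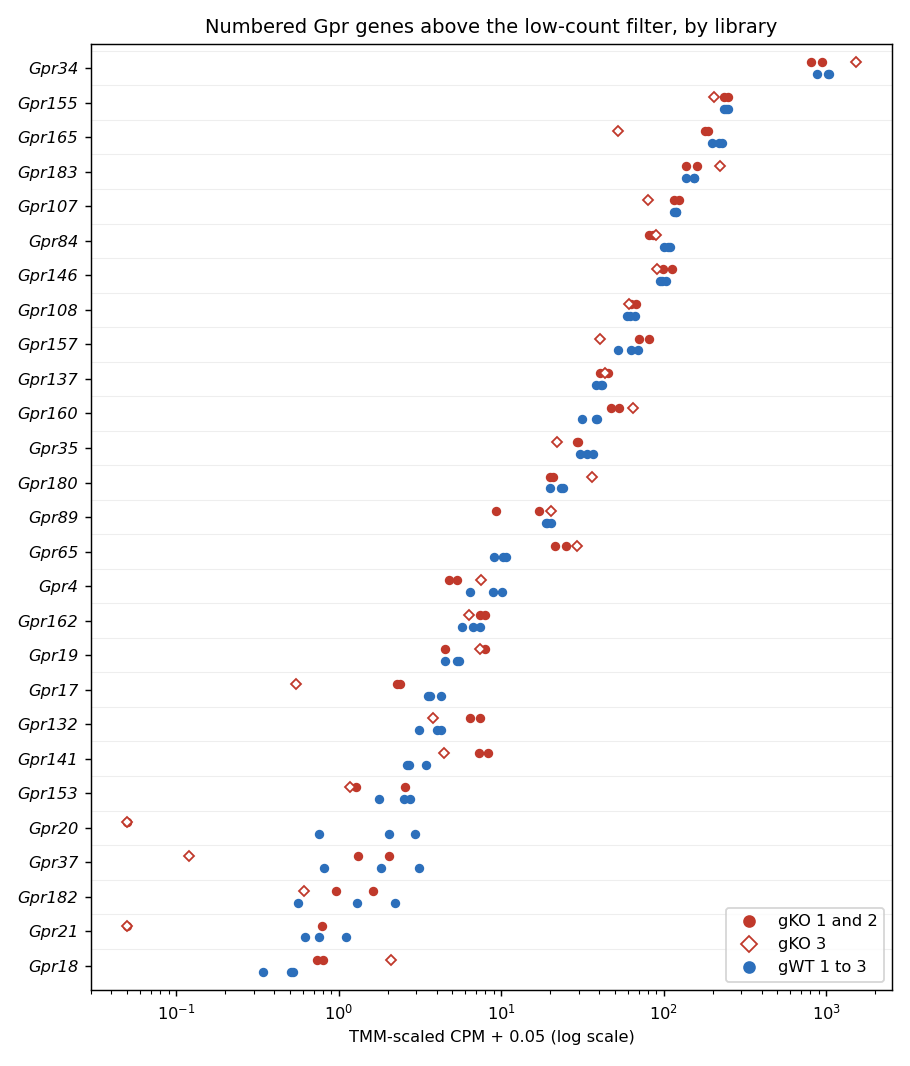
TMM-scaled CPM, with 0.05 added and on a log scale, of 27 of the 28 numbered Gpr genes that passed the low-count filter (1 is not reported here), with gKO libraries (red, replicate 3 as an open diamond) above gWT libraries (blue) in each row. Gpr34 lies above all other members in every library, and the gKO points of Gpr65 all lie to the right of its gWT points.

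Divided by exon length in kilobases, the levels fell into few steps. In gKO, Gpr34 had 521 ± 184 CPM per kb, against 467 ± 42.4 CPM per kb in gWT (SD, n = 3 each here and for all values per kb). Next came Gpr84, a receptor for medium-chain fatty acids, at 49.6 ± 2.37 in gKO and 61.0 ± 2.76 CPM per kb in gWT, and Gpr183, which senses an oxysterol, at 60.0 ± 14.97 in gKO and 51.4 ± 3.39 CPM per kb in gWT. These were followed by Gpr165, at 30.7 ± 16.7 in gKO and 47.2 ± 3.47 CPM per kb in gWT, and by Gpr155, a cholesterol sensor of the lysosome, at 34.4 ± 3.64 in gKO and 36.1 ± 1.17 CPM per kb in gWT. Gpr84 stood above Gpr183 in gWT with no overlap of libraries, whereas in gKO the libraries of Gpr183 and Gpr84 overlapped. Gpr183 and Gpr165 overlapped in gWT, and Gpr165 and Gpr155 overlapped in gKO. Gpr108, Gpr146, Gpr157, Gpr180 and Gpr137 came next, between 12.7 and 22.4 CPM per kb in gKO and between 11.8 and 21.9 CPM per kb in gWT. Gpr146, Gpr157 and Gpr180 each overlapped the next in that order in gWT. Of the 28 tested members, 10 reached 10 CPM per kb in gWT and 8 were under 1 CPM per kb.

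One member passed the test. Gpr65, a receptor that senses extracellular protons and raises cyclic AMP, rose 2.53-fold in gKO. It was called by edgeR's quasi-likelihood test with Benjamini-Hochberg adjustment over all 13403 tested genes at an adjusted p under 0.05, the rule used throughout. Of the 28 tested members, 1 was called higher and 0 lower. In the background, 0.395% of the tested genes were called higher and 0.231% lower, 0.627% in all. At an unadjusted p under 0.05 there were 3 members higher and 2 lower, against 5.16% of all tested genes higher and 5.74% lower (10.9% in either direction). DESeq2 tested 52 members and called 1 higher, Gpr65, and 2 lower, Gpr20 and Gpr176, both at 0 in every gKO library, with 2.46% of its tested genes called. The tested members split evenly by sign, 14 positive and 14 negative, with a median log2 fold change of -0.02 against 0.01 over all tested genes. The groups did not overlap in 4 members that were higher and 5 that were lower in gKO, 9 of 28 (32.1%). Over all tested genes this was so in 21.3%, with 10% higher and 11.3% lower.

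Gpr65 (chr12:98268635-98276644) had counts of 376, 362 and 414 in gKO and of 174, 186 and 154 in gWT. Its levels were 21.5, 24.8 and 29.3 CPM in gKO replicates 1, 2 and 3, and 10.3, 10.6 and 9.02 CPM in the gWT replicates. Every gKO library lay above every gWT library by more than the spread within either group. Mean CPM was 25.2 ± 3.88 in gKO, against 9.97 ± 0.84 for gWT (SD over 3 libraries each), and the log2 fold change was 1.34 (SE 0.21; edgeR adjusted p = 0.0360). Its only exonic overlap is with an antisense gene absent from the count table, Gm47566, over 24.7% of its exon length, and without a stated strand setting reads from both cannot be told apart. Without gKO replicate 3, its log2 fold change was 1.21 (SE 0.21) with an edgeR adjusted p of 0.00259. Without any other single library, the edgeR adjusted p lay between 0.0914 and 0.295 while the log2 fold change stayed between 1.27 and 1.44.

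Markers of blood myeloid cells had positive fold changes, as Gpr65 did. The 9 neutrophil markers in the table, of which Csf3r is also expressed by microglia, summed to 858 to 1260 CPM in gKO and 558 to 662 CPM in gWT, and all 9 had a positive fold change, with 2 called. All 8 monocyte markers had a positive fold change, with 2 called, and summed to 146 to 222 CPM in gKO and 92.9 to 103 CPM in gWT, and 6 of the 8 were positive without gKO replicate 3. The T and NK cell markers were near 0, at 1.30 to 3.89 CPM in sum in gKO and 0.35 to 1.43 CPM in gWT, with Cd3g and Ncr1 at 0 in every library. The part of these cells in the Gpr65 result was not tested.

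**Figure D2:**
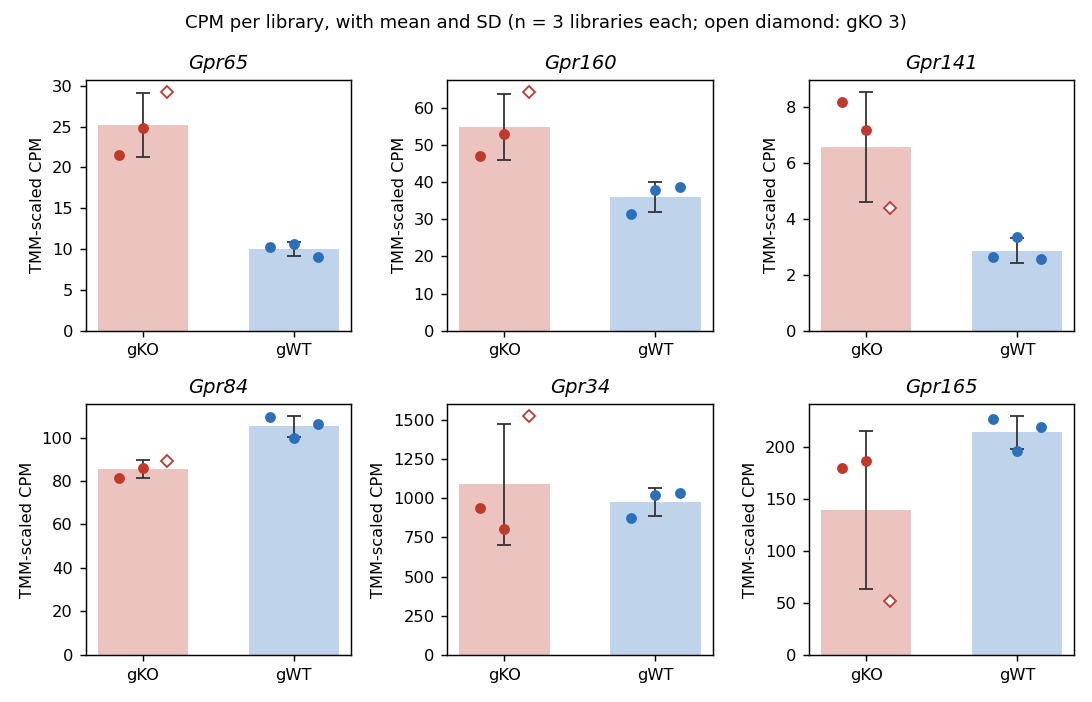
TMM-scaled CPM of 6 members per library, with gKO on the left and gWT on the right, bars for the mean, error bars for the SD (n = 3 libraries each) and an open diamond for gKO replicate 3. The groups are apart for Gpr65, Gpr160 and Gpr141, which are higher in gKO, and for Gpr84 and Gpr165, which are lower, whereas for Gpr34 they overlap.

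Besides Gpr65, the leukocyte and microglial receptors gave mixed directions. This list of receptors was chosen with earlier results of these data known, so its values are a description only. With Gpr65, 10 receptors of the list were tested, of which 7 had a positive and 3 a negative fold change. The groups did not overlap in 4 that were higher and 3 that were lower, against 10% and 11.3% of all tested genes. The median log2 fold change was 0.41, against 0.01 over all genes. These became 5 positive and 5 negative, with a median of 0.23, without gKO replicate 3. Gpr160 had 47.0, 53.2 and 64.5 CPM in gKO, against 31.5, 38.1 and 38.7 CPM in gWT. All gKO libraries were above all gWT libraries, and the log2 fold change of 0.61 (SE 0.17) did not pass the test (edgeR adjusted p = 0.231). Gpr141 had 8.19, 7.20 and 4.38 CPM in gKO, against 2.65, 3.37 and 2.58 CPM in gWT. The groups were apart, with gKO replicate 3 the closest to gWT, and the log2 fold change was 1.20 (SE 0.37; edgeR adjusted p = 0.277). Without gKO replicate 3, Gpr141 passed the test, at 1.41 on the log2 scale (SE 0.37; edgeR adjusted p = 0.0329). In that fit 7.81% of the tested genes were called, 3.99% higher and 3.82% lower.

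Gpr84 was lower in every gKO library without passing the test over 6 libraries. Its levels were 81.2, 86.2 and 89.4 CPM in gKO, against 109, 99.95 and 106 CPM in gWT. All gKO libraries were below all gWT libraries, and gKO replicate 3 did not stand out. The log2 fold change was -0.30 (SE 0.12; edgeR adjusted p = 0.429) with 6 libraries. Without gKO replicate 3 it was -0.34 (SE 0.09), a level 1.26-fold lower in gKO, with an edgeR adjusted p of 0.0340. Over 39.5% of its exon length Gpr84 overlaps an antisense gene, Gm49482, which the count table does not hold.

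Gpr35, a receptor of gut and immune cells, had 29.5, 29.4 and 22.1 CPM in gKO, against 33.6, 36.5 and 30.3 CPM in gWT. The groups were apart by less than 1 CPM, and the log2 fold change was -0.31 (SE 0.18; edgeR adjusted p = 0.604), or -0.19 (SE 0.15, edgeR adjusted p = 0.487) without gKO replicate 3. Gpr132, a relative of Gpr65 among the proton-sensing receptors, had 6.36, 7.34 and 3.75 CPM in gKO, against 4.18, 3.09 and 3.98 CPM in gWT. Its groups overlapped through gKO replicate 3, and the log2 fold change was 0.63 (SE 0.37; edgeR adjusted p = 0.605). Gpr18 had counts of 12, 11 and 29 in gKO and of 8, 8 and 5 in gWT, and its log2 fold change was 1.49 (SE 0.92, edgeR adjusted p = 0.630). The highest count was in gKO replicate 3, without which the value was 0.80 (SE 1.30).

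Gpr4, a proton-sensing receptor of endothelial cells, had 5.27, 4.73 and 7.49 CPM in gKO, against 10.1, 8.80 and 6.38 CPM in gWT. The groups overlapped, and the log2 fold change was -0.53 (SE 0.31; edgeR adjusted p = 0.605). Gpr182, another endothelial receptor, had counts of 16, 23 and 8 in gKO and of 21, 9 and 37 in gWT. All 10 endothelial markers had a negative fold change, 1 of them called, and summed to 428 to 606 CPM in gKO and 972 to 1271 CPM in gWT. Their part in the Gpr4 values was not tested.

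The X-linked members Gpr34 and Gpr165 gave opposite values in gKO replicate 3. Gpr34 (chrX:13632089-13640858) had 936, 803 and 1525 CPM in gKO, against 875, 1023 and 1033 CPM in gWT. The groups overlapped, and gKO replicate 3 was the highest of the 6 libraries. Its log2 fold change was 0.16 (SE 0.23, edgeR adjusted p = 0.865) with 6 libraries and -0.18 (SE 0.08, edgeR adjusted p = 0.205) without gKO replicate 3, so the sign rested on that library. Gpr165 (chrX:96713441-96719388) had 180, 187 and 52.1 CPM in gKO, against 227, 197 and 220 CPM in gWT. The groups were apart, and gKO replicate 3 was far below the rest. Its log2 fold change of -0.62 (SE 0.40, edgeR adjusted p = 0.647) moved to -0.23 (SE 0.08, edgeR adjusted p = 0.0884) without gKO replicate 3. Of the 446 tested X-linked genes, 2 were called higher and 1 lower, and the median log2 fold change was 0.06.

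Gpr183 (chr14:121952551-121965195), which guides leukocytes along oxysterol gradients, had 160, 138 and 221 CPM in gKO, against 137, 154 and 154 CPM in gWT. The groups overlapped, with gKO replicate 3 the highest library. The log2 fold change was 0.22 (SE 0.18, edgeR adjusted p = 0.735) with 6 libraries and -3.27e-04 (SE 0.09) without gKO replicate 3. Of the 4 listed enzymes that make or break its ligand, Ch25h did not pass the low-count filter. Cyp7b1, Hsd3b7 and Cyp27a1 were tested and none was called, with edgeR unadjusted p under 0.05 in 0 of them. The smallest p among them were those of Cyp27a1, at a log2 fold change of 0.13 (SE 0.19), and Cyp7b1, at 0.30 (SE 0.86), and without gKO replicate 3 both were negative, at -0.017 and -0.032.

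**Figure D3:**
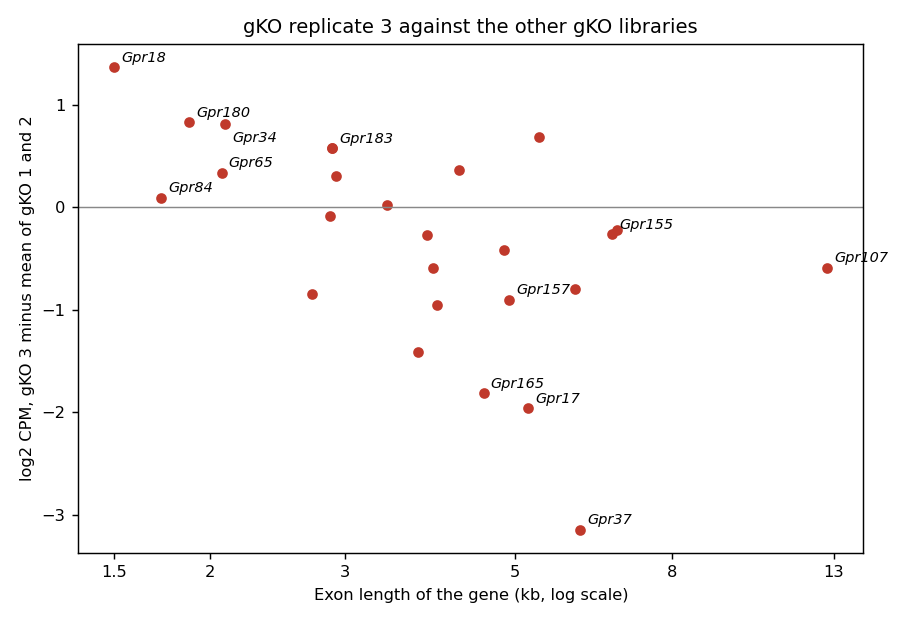
Difference in log2 CPM (prior count 2) between gKO replicate 3 and the mean of gKO replicates 1 and 2, against exon length on a log scale, for 26 of the 28 tested members (Gpr20, at 0 counts in gKO, is not drawn, and 1 member is not reported here). Short genes such as Gpr34, Gpr180 and Gpr18 lie above 0, and Gpr165, Gpr17 and Gpr37 lie lowest.

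The place of gKO replicate 3 followed exon length among the members. It was the highest of the 6 libraries for 7 tested members, with a median exon length of 2.09 kb, and the lowest for 9, with a median of 5.20 kb. Across the 28 members, the difference between this library and the mean of the other gKO libraries had a Spearman correlation of -0.55 with exon length, a description over genes that share the same libraries. Over 13325 tested genes with a length the value was -0.46. gKO replicate 3 was the highest library for 31.3% and the lowest for 31.8% of all tested genes.

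No member of the intracellular membranes passed the test. Of the 6 tested, 3 had a positive and 3 a negative fold change, none was called, and the median log2 fold change was -0.02 (0.0076 without gKO replicate 3, with 4 positive). Gpr155 had 236, 250 and 203 CPM in gKO, against 249, 240 and 234 CPM in gWT, and gKO replicate 3 was the lowest library. Its log2 fold change was -0.07 (SE 0.13, edgeR adjusted p = 0.900). Gpr107, a Golgi protein, had 125, 115 and 79.7 CPM in gKO, against 120, 119 and 116 CPM in gWT, again with gKO replicate 3 lowest. Its relative Gpr108 had 67.6, 63.2 and 61.4 CPM in gKO, against 59.6, 66.5 and 61.7 CPM in gWT, with overlapping groups and a log2 fold change of 0.03 (SE 0.13). Gpr137 had 40.7, 45.3 and 43.5 CPM in gKO, against 41.4, 38.3 and 40.9 CPM in gWT. It overlaps an exon of Bad on the other strand over 15.4% of its length, and its counts are not whole numbers. Gpr180 had 19.9, 20.8 and 36.3 CPM in gKO, against 20.0, 23.2 and 23.8 CPM in gWT, so that only gKO replicate 3 was outside the gWT range on the high side. Gpr89, a Golgi pH regulator, had 17.1, 9.19 and 20.2 CPM in gKO, against 19.0, 18.7 and 20.2 CPM in gWT. Over 24.9% of its exon length Gpr89 overlaps Pdzk1 on the other strand, so its counts are uncertain.

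The receptors Gpr146 and Gpr157 were abundant, and their groups overlapped. Gpr146, known in liver for its effect on cholesterol, had 112, 99.2 and 90.6 CPM in gKO, against 97.0, 103 and 94.3 CPM in gWT. Its log2 fold change was 0.04 (SE 0.13, edgeR adjusted p = 0.951), and gKO replicate 3 was lowest. Gpr157 had 69.9, 81.1 and 40.3 CPM in gKO, against 63.1, 52.2 and 69.1 CPM in gWT. Without gKO replicate 3, where it was lowest, its log2 fold change was 0.29 (SE 0.13, edgeR adjusted p = 0.189), against 0.05 (SE 0.25) with all libraries.

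**Figure D4:**
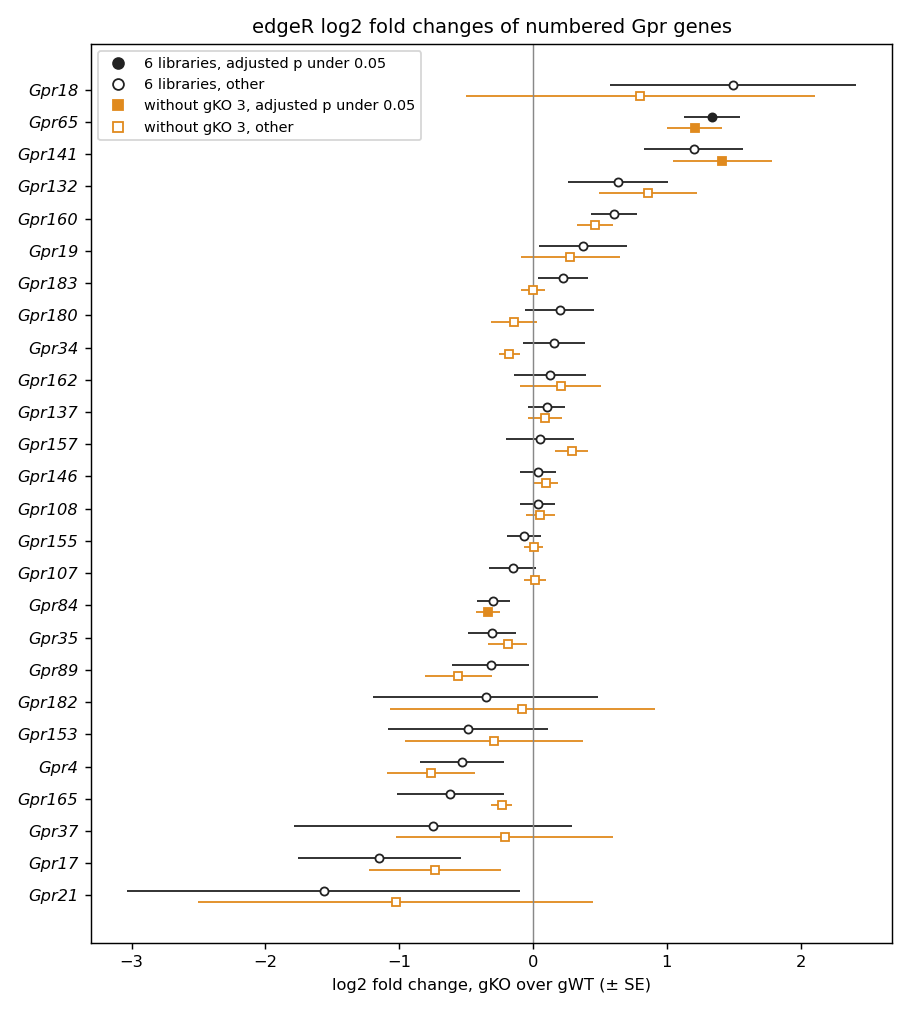
edgeR log2 fold changes of gKO over gWT with their SE for 26 of the 28 tested members (Gpr20, at 0 counts in gKO, is not drawn, and 1 member is not reported here), from all 6 libraries (black circles) and without gKO replicate 3 (orange squares), filled where the adjusted p was under 0.05. Gpr65 is filled in both fits, Gpr141 and Gpr84 only without gKO replicate 3, and Gpr34, Gpr180, Gpr183, Gpr155 and Gpr107 lie on opposite sides of 0 in the fits.

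Receptors of neurons and other glia had low counts. Of 33 members in this group, 8 had no count in any library and 6 passed the filter, of which 0 were called. The 8 neuronal markers summed to 14.1 to 22.4 CPM in gKO and 17.7 to 25.6 CPM in gWT, with 0 called. All 8 astrocyte markers had a negative fold change, with or without gKO replicate 3. They summed to 265 to 309 CPM in gKO and 370 to 406 CPM in gWT, with 0 called over 6 libraries. The part of astrocytes in the values of these receptors was not tested. Gpr17, a receptor of maturing oligodendrocyte precursors, had counts of 39, 34 and 7 in gKO and of 61, 61 and 72 in gWT. All gKO libraries were lower, and the log2 fold change was -1.15 (SE 0.61; edgeR adjusted p = 0.554). It was -0.73 (SE 0.49, edgeR adjusted p = 0.419) without gKO replicate 3, the lowest library. Of the 8 precursor markers, Cspg4 is also a mural and Vcan a monocyte marker. The 8 summed to 19.4 to 36.6 CPM in gKO and 33.3 to 46.0 CPM in gWT, ranges that overlap. Of the 7 tested, 3 had a positive and 4 a negative fold change, with a median log2 fold change of -0.19. Without gKO replicate 3 there were 4 positive and 3 negative, with a median of 0.19. Cspg4 was lowest, at a log2 fold change of -2.01 (SE 0.39), against -0.91 to 0.77 for the other tested precursor markers. The part of precursors in the Gpr17 values was not tested. Gpr37, an oligodendrocyte receptor, had counts of 22, 29 and 1 in gKO and of 52, 31 and 13 in gWT, with overlapping groups, whereas the oligodendrocyte markers summed to 374 to 443 CPM in gKO and 345 to 359 CPM in gWT. Gpr19 and Gpr162 had 4.46 to 7.90 and 6.29 to 7.84 CPM in gKO, against 4.48 to 5.45 and 5.72 to 7.37 CPM in gWT. Gpr153 and Gpr21 were at most 2.69 CPM in any library, with overlapping groups.

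Several rare members had counts in gWT and none in gKO. Gpr20, an orphan receptor coupled to inhibitory G proteins, had 0 counts in each gKO library, against 34, 51 and 12 counts in gWT. With the summed gWT counts set against a floor of 3 counts over the gKO group, its level was at least 29.0-fold lower in gKO. This bound does not allow for the spread among the gWT libraries. Gpr20 passed the low-count filter only through gWT, and its edgeR adjusted p was 0.145 with 6 libraries and 0.0254 without gKO replicate 3. Gpr176 was also at 0 in all gKO libraries and present in all gWT libraries, and it did not pass the filter. Gpr176, a receptor of the circadian centre of the brain, had 8, 13 and 25 counts in gWT. By the same kind of bound it was at least 13.7-fold lower in gKO. Gpr176 is among the members with the AGCAATA match shown above.

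Fewer members, and fewer genes over the whole table, were seen in gKO. Members with a count above 0 numbered 36, 32 and 35 in the gKO libraries, against 45, 49 and 42 in the gWT libraries. At 0 in all gKO libraries and above 0 in all gWT libraries were 4 of the 70 members, and 0 were the other way round. Of all 24411 genes, 198 were at 0 in all gKO libraries and above 0 in all gWT libraries, and 8 the other way round. The share of deposited values that were not whole numbers was 2.64% to 2.83% in gKO and 3.35% to 3.65% in gWT. The part of this library-wide difference in the values of Gpr20 and Gpr176 was not tested.

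Among rare members with more counts in gKO, Gpr3, a receptor that raises cyclic AMP without a ligand, had counts of 26, 5 and 10 in gKO and of 3, 2 and 0 in gWT. It was not tested, and its groups were apart. Gpr174 had 10 counts in gKO replicate 1 and 0 in all other libraries. The untested members with counts had at most 72 counts over the 6 libraries. No count was found in any library for 15 members, namely Gpr1, Gpr6, Gpr12, Gpr25, Gpr33, Gpr39, Gpr45, Gpr55, Gpr61, Gpr101, Gpr119, Gpr139, Gpr142, Gpr149 and Gpr151. A count of 0 allows a level of up to 3 counts in a library, which covers counting error only.

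The machinery around the receptors was compared by gene lists chosen for this pathway. Of 34 tested other G protein-coupled receptors of microglia, 0 were called, with 7 higher and 2 lower at an unadjusted edgeR p under 0.05. Over all tested genes, 5.16% were higher and 5.74% lower at that p. Without gKO replicate 3, where 3.99% of all tested genes were called higher and 3.82% lower, 5 of these receptors were higher and 3 lower. The smallest p were those of Adrb1, a noradrenaline receptor, at a log2 fold change of 0.82 (SE 0.18, edgeR adjusted p = 0.117), and S1pr1, which binds sphingosine phosphate, at -0.74 (SE 0.16, edgeR adjusted p = 0.128). Of 17 tested adhesion receptors, 0 were called, 14 had a negative fold change, and the median log2 fold change was -0.52 against 0.01 over all genes. Leaving out gKO replicate 3 gave 1 called higher and 2 lower, with a median of -0.14. Adgra3 had 27.4, 28.4 and 13.1 CPM in gKO, against 76.4, 41.0 and 52.7 CPM in gWT (log2 fold change -1.30, SE 0.33, edgeR adjusted p = 0.182). Adgrl4, a receptor of endothelial cells, had 33.8, 27.8 and 26.4 CPM in gKO, against 60.0, 42.9 and 44.3 CPM in gWT (-0.74, SE 0.19, edgeR adjusted p = 0.184). The endothelial markers given above were also lower in sum in every gKO library, and their part in these values was not tested.

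One gene among the signal regulators was called. Rgs1, which shortens the signal of activated G proteins in leukocytes, rose to 213, 209 and 343 CPM in gKO, against 80.1, 107 and 101 CPM in gWT. Its log2 fold change was 1.41 (SE 0.22) with an edgeR adjusted p of 0.0385, and it was the only call among 13 tested RGS genes. Without gKO replicate 3 it was 1.13 (SE 0.10, edgeR adjusted p = 1.21e-05), with 2 RGS genes called higher and 1 lower. Over all tested genes, that fit called 3.99% higher and 3.82% lower. Of 24 tested G protein subunits, 7 receptor kinases and arrestins, 25 cyclic AMP genes and 5 enzymes of lysophosphatidylserine metabolism, edgeR called 0 each. At an unadjusted edgeR p under 0.05 these lists had 3, 0, 0 and 0 genes, against 10.9% of all tested genes. Without gKO replicate 3, where 7.81% of all tested genes were called, edgeR called 3, 1, 1 and 0 in these lists. Their medians of log2 fold change were -0.05, 0.03, -0.20 and 0.09, and 19 of the 25 cyclic AMP genes had a negative fold change. The smallest p in these lists were those of Gnai1 (-1.32, SE 0.51) and Gnal (0.83, SE 0.35), of Grk6 (-0.18, SE 0.13) and Adrbk2 (0.21, SE 0.21), of Adcy4 (-0.77, SE 0.34) and Pde3b (0.21, SE 0.12), and of Abhd16a (-0.35, SE 0.16) and Ddhd2 (0.30, SE 0.17), all as log2 fold changes.

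Gpr symbols outside the naming rule included 1 called gene of 8 tested. Gpr137b-ps, an annotated pseudogene of Gpr137b, had 47.9, 35.5 and 47.0 CPM in gKO, against 20.5, 21.9 and 21.6 CPM in gWT (log2 fold change 1.02, SE 0.17, edgeR adjusted p = 0.0495). Gpr137b had 164, 156 and 178 CPM in gKO, against 155, 156 and 155 CPM in gWT, with a log2 fold change of 0.09 (SE 0.12). Neither gene's counts were all whole numbers, and the split of reads between such near copies is uncertain.

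The authors' deposited table of higher genes in gKO lists 75 genes, 1 of them a member, and their deposited table of lower genes lists 201 genes, 2 of them members. Gpr65 has a log2 fold change of 1.34 and an adjusted p of 9.99e-06 in the authors' deposited table. In the authors' deposited table Gpr20 has a log2 fold change of -7.29 with an adjusted p of 5.68e-04, and Gpr176 has -6.21 with an adjusted p of 0.0313. The fitted values of Gpr20 and Gpr176 are no measure of size, since every gKO library was at 0. DESeq2 on the deposited counts gave the same 3 members here, at log2 fold changes of 1.34, -7.29 and -6.21. Both rest on the same libraries, so this is a repeat and no separate support. DESeq2 called 1.06% of its tested genes higher and 1.40% lower.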

How the data were processed

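The deposited files are 1 table of expected counts by gene symbol, covering 6 libraries, and the authors' lists of genes that rose or fell in gKO. STAR 2.7.9a, RSEM, DESeq2, GRCm38 and mm10 appear, without their roles, in the submitters' processing notes. The annotation and the strand setting were not given in the sources used here. Per the file headers, the authors' lists hold the mean normalized signal per gene, a log2 fold change, its standard error and test statistic (both scores) and p-values. After rounding to whole numbers, expected counts went into edgeR 4.0.16 (R 4.3.3) with TMM scaling, the default low-count filter and a robust quasi-likelihood fit on genotype alone. Benjamini-Hochberg adjustment ran over all 13403 tested genes. Standard errors were obtained as absolute log2 fold change over the root of F. The members, lists and naming rule were chosen with earlier results of these data known. That rule gave full statistics to called members, to those with the smallest p and to the most abundant per length, and values to all others. Of the 70 symbols, 69 matched GENCODE M21. Other fits used limma 3.58.1 (voom) and DESeq2 1.42.0, other scalings and filters, a replicate block, removal of each library's trend with transcript length, and each library left out. Within each group, chi-square per degree of freedom between libraries was at least 6.49, above sampling noise. It was 101 for gKO replicate 3 against each of gKO replicates 1 and 2, and at most 13.3 for the other pairs. These values cannot show whether the libraries come from separate animals. Each library was counted as its own sample. Floors cover counting error only. Some members are counted in the totals but not reported here by name.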

Additional observations from a re-analysis of the deposited data

How the results depend on the processing

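With RLE or upper-quartile scaling, limma-voom, no filter, a filter of 1 CPM in 3 libraries, or the length trend removed, 1 member was called higher and 0 lower, as with the reported fit, and it was Gpr65 each time. DESeq2 called 168 genes higher and 223 lower, with 2 members lower. Voom with sample quality weights called 261 higher and 152 lower, with 2 members higher, Gpr65 and Gpr141 (log2 fold change 1.35). With no filter 47 genes were lower, and with the length trend removed 98 were higher and 78 lower. Same-numbered libraries share only a number, with correlations of their deviations of 0.053, -0.048 and 0.015. With the replicate block, edgeR called 11 genes higher and 7 lower and 0 members, and Gpr65 had a log2 fold change of 1.33 at an adjusted p of 0.0989. With each library left out in turn, 0 to 551 genes were higher and 0 to 528 lower, 0 to 2 members were higher and 0 to 2 lower, and the median log2 fold change of tested members was -0.095 to 0.014. The highest counts were without gKO replicate 3. In that fit 13 of 34 tested members had an unadjusted edgeR p under 0.05, as did 3200 of 13814 tested genes. Leaving out a gWT library gave 0 edgeR calls, while 729 to 921 genes had an unadjusted p under 0.05. Signs changed for small values that were not called. With upper-quartile scaling Gpr108 was at -0.0034 and Gpr146 at -0.0027. With voom and quality weights, Gpr180 was at -0.093, Gpr182 at 0.060 and Gpr34 at -0.13. With 1 library left out, the log2 fold changes ranged from -0.28 to 0.011 for Gpr107, -0.0086 to 0.077 for Gpr108, -0.051 to 0.098 for Gpr146, -0.14 to 0.0038 for Gpr155, -0.16 to 0.29 for Gpr157, -0.14 to 0.35 for Gpr180, -0.81 to 0.22 for Gpr182, -3.27e-04 to 0.36 for Gpr183 and -0.18 to 0.33 for Gpr34. The causes were not tested. For members under about 100 counts in all, depth limits what can be seen.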
